A study of Rattus norvegicus with 10 samples.

Results

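The sites described here are m6A sites found in both hypertrophic and quiescent neonatal rat cardiomyocytes at which the read pileup at the summit was relatively taller in quiescent cells. N6-methyladenosine (m6A) is a methyl mark on adenosines inside RNA. It was mapped by m6A RNA immunoprecipitation and sequencing, in which fragments bound by an m6A antibody are sequenced and places where reads pile up over a control are called as peaks. Each hypertrophic summit was paired with the nearest quiescent summit within 100 bp. Both peaks had to overlap by 1 bp or more, score from 100 to under 3100 and be at most 2000 bp wide. Of 65539 hypertrophic peaks, 24489 formed such a pair with one of the 68440 quiescent peaks. The log2 ratio of hypertrophic to quiescent height had a median of 0.15 over these pairs, so that a typical hypertrophic summit was 1.11 times as tall as its quiescent partner. The sites were chosen by this ratio of summit heights: one was taken when its log2 ratio lay at least 0.8 below that median, which corresponds to a quiescent summit at least 1.57 times as tall. This gave 1632 sites, or 6.66% of the eligible pairs. No quiescent summit was used by more than 1 site.

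The study worked with primary cardiomyocytes isolated from rats 1 to 3 days old and kept in M199 medium. Hypertrophic cells received 2% bovine serum, and quiescent cells were kept without serum. The 10 libraries form 5 groups of 2, which are input RNA and m6A immunoprecipitates of hypertrophic cells, the same of quiescent cells, and a control precipitated with normal IgG. The IgG libraries came from hypertrophic cells only, and both peak lists were called against the negative control, per the list names. Each condition has 1 list, which leaves no spread between replicates to set a difference against, and no test between the conditions was made. The lists carry no gene names and no expression values, so the cell type was not checked against markers, and sites are named by their position in the rat build rn4.

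In textbook terms, m6A is written co-transcriptionally by a methyltransferase complex built around METTL3 and METTL14, can be removed by the demethylases FTO and ALKBH5, and is bound by reader proteins of the YTH family that affect the stability and translation of the RNA. It is found most often near stop codons and in long internal exons. Serum growth factors make cultured cardiomyocytes enlarge and raise their protein synthesis, a common model of cardiac hypertrophy. The height of a precipitated pileup reflects both how much of an RNA is present and how much of it is methylated. Fewer cells of a type, less RNA per cell and less methylation per RNA cannot be told apart from these lists. Data of the inputs were not analysed here.

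The 1632 sites were mostly of modest height in quiescent cells and low in hypertrophic cells. Their quiescent summit height ran from 9 to 125 with a median of 27 (quartiles 21 and 35). Their hypertrophic height ran from 5 to 75 with a median of 13 (quartiles 10 and 17). Over all eligible pairs the medians were 28 and 32, so the quiescent summits of these sites were of ordinary height and the hypertrophic summits were low. The quiescent height was a median of 1.91 times the hypertrophic one (quartiles 1.71 and 2.26, highest 6.78). At 726 sites it was at least 2 times as tall (2.96% of all eligible pairs), at 99 at least 3 times and at 18 at least 4 times. These values chose the sites and are given as a description.

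The opposite side was smaller on the same centred scale. A hypertrophic summit at least 0.8 above the median was found at 1006 pairs, or 4.11%. On the uncentred ratio the order was the other way, with 1163 pairs past -0.8 and 1769 past 0.8. The quiescent-taller share of pairs past either threshold was thus 61.9% with centring and 39.7% without. Which direction holds more sites therefore depends on the 0.15 shift that centring removes. No scaling of the heights is stated.

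**Figure D1:**
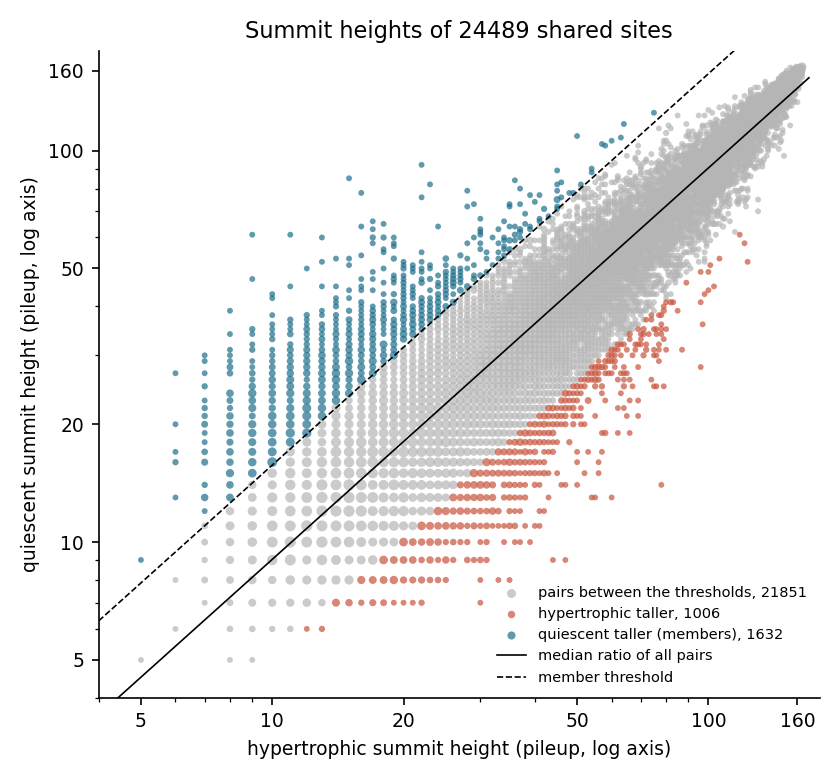
Hypertrophic summit height (x axis) against quiescent summit height (y axis), both as pileup on log axes, for 24489 shared sites; larger points stand for more pairs. The 1632 quiescent-taller sites lie above the dashed threshold line, mostly at quiescent heights of 21 to 35 and none above 125.

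The share of pairs past the threshold was highest at mean heights from 10 to under 30 and smaller on both sides of that range. Under 10 it was 3.10% (14 of 452 pairs, Wilson 95% interval 1.85 to 5.13%). With the geometric mean of both heights from 15 to under 20, 512 of 3749 pairs were quiescent-taller (13.7%, interval 12.6 to 14.8%). From 30 to under 40 the share was 4.56% (interval 3.88 to 5.36%), and from 60 to under 100 it was 0.469% (15 of 3198 pairs). At 100 or more there were 0 among 2064 pairs. The highest summit height was the same in both lists, and pairs with both heights close to it cannot pass either threshold. Part of this 0 is thus fixed in advance, so no limit on the share is drawn from it. Hypertrophic-taller pairs were also rarest at the tallest summits, where the same restriction holds. They were fewer than quiescent-taller pairs from 10 to under 30. From 30 to under 40 there were 140 quiescent-taller and 127 hypertrophic-taller pairs. From 40 to under 60 the order was turned, with 69 quiescent-taller (1.96%) and 94 hypertrophic-taller pairs (2.67%). These intervals cover counting error only, and neighbouring sites are not independent.

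**Figure D2:**
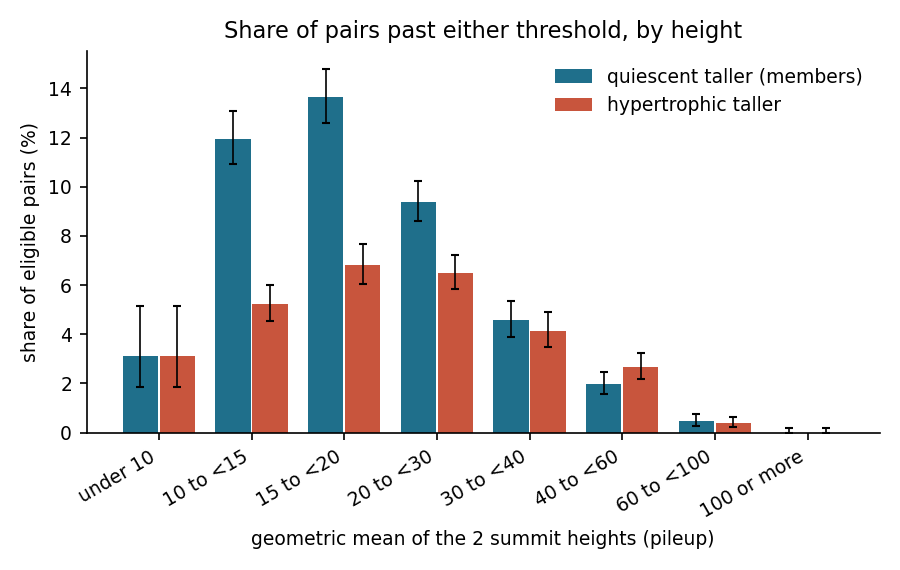
Share of eligible pairs past either threshold (y axis, %) by the geometric mean of both summit heights (x axis, pileup); bars show shares and whiskers Wilson 95% intervals. The quiescent-taller share is highest at 15 to under 20 (13.7%, against 6.83% hypertrophic-taller), and both shares are under 1% from 60 upwards. In the tallest class, pairs with both heights close to the highest listed height cannot pass either threshold.

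Membership at low height turns on few reads. Of the 1632 sites, 449 (27.5%) had a hypertrophic height of 10 or less, and 25.4% of the hypertrophic-taller pairs had a lower height that small, against 8.28% of all pairs. Selection on a ratio favours a low lower height in either direction. If 1 read were added to each hypertrophic summit and 1 taken from each quiescent summit, 1128 sites (69.1%) would still pass the threshold, with 2 reads 755 and with 3 reads 506. This takes heights to be whole reads, which their whole-number values allow but no header states. Just inside the threshold, 5 pairs on 5 chromosomes were tied at heights of 26 and 41 in hypertrophic and quiescent cells. Just outside it, 28 pairs were tied at a ratio of 1.57, of which 20 had heights of 14 and 22.

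The 10 sites with the largest relative difference lay on 9 chromosomes. At 9 of them there was 0 or 1 other eligible pair within 50 kb, as at 941 of the 1632 sites (57.7%) and 45.0% of all pairs. On chromosome 7 from 66776178 to 66776740, the summit height was 9 in hypertrophic and 61 in quiescent cells, a ratio of 6.78, with summits 3 bp apart. Its score, a measure of the peak's p-value against IgG on the scale of the peak caller, was 116.63 against 1533.51. On chromosome 8 from 120138753 to 120139596 the heights were 15 and 85, with scores of 226.98 and 2692.25. The nearest other quiescent summit lay 30168 bp from that site. Chromosome 1 held 2 of the 10 lowest ratios. From 203147695 to 203148241 the heights were 11 and 61, and from 100714697 to 100715427 they were 16 and 78. Around the second of these, the nearest other hypertrophic summit lay 371983 bp away and the nearest other quiescent summit 41132 bp away.

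The other 6 of these 10 sites had lower quiescent pileups. Heights were 9 and 47 on chromosome 10 from 17671221 to 17671956, and 8 and 39 on chromosome 14 from 18737700 to 18738576. They were 13 and 60 on chromosome 17 from 72943750 to 72944310. On chromosome 2 from 217707154 to 217707976 they were 6 and 27, on chromosome 4 from 180830214 to 180831179 they were 10 and 43, and on chromosome 5 from 155885754 to 155886654 they were 7 and 30. In all 10 sites the hypertrophic peak scored from 103.74 to 226.98, close to the lower bound of 100, whereas the quiescent peak scored from 1017.78 to 2692.25. Sites with a still weaker hypertrophic peak could not enter, because both scores had to reach 100.

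The tallest quiescent summits among the sites had smaller ratios. The tallest, on chromosome 14 from 4331812 to 4332538, stood at 125 against 75 in hypertrophic cells. A second on the same chromosome, from 49403831 to 49404882, stood at 117 against 64. On chromosome 7 there were 2 neighbouring sites 447 bp apart by their hypertrophic summits, one from 1222979 to 1223548 with heights of 109 against 50 and one from 1221959 to 1222915 with 108 against 63. Of the 10 tallest, 9 had ratios from 1.67 to 2.18. The exception was on chromosome 3 from 168657878 to 168658388, where the quiescent height was 92 and the hypertrophic height 22, a ratio of 4.18. The nearest other quiescent summit lay 1029 bp away and the nearest other hypertrophic summit 12498 bp away.

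Peak scores, which the selection used only as bounds, differed in the same direction as the heights. A score grows with the negative logarithm of a p-value and a height is a pileup, so the sizes of their ratios cannot be compared. The score was higher in the quiescent list at 1630 of 1632 sites (99.9%), against 52.9% of all eligible pairs and 6 of 1006 hypertrophic-taller pairs. The median score was 644.9 in the quiescent and 173.0 in the hypertrophic list, and the quiescent score was a median of 3.23 times the hypertrophic one. Over all pairs that median was 1.03. In its own list, the median quiescent score stood above 89.4% of all quiescent peaks, while the median quiescent height stood above 69.3%. Scores come from the same lists and the same contrast as the heights, so they are no independent evidence. The 2 exceptions, named after their values were seen, both had heights of 10 and 16. One lay on chromosome 3 from 18278693 to 18279331 with scores of 303.98 and 283.07, and one on chromosome X from 37034841 to 37035599 with 402.98 and 395.1. In both, the hypertrophic peak was the wider one.

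At equal quiescent height, these sites scored well above other shared sites. With a quiescent height from 25 to under 30, the median quiescent score was 678.0 (quartiles 465.7 and 926.1, 304 sites). For the 1874 pairs between the thresholds it was 307.0 (quartiles 195.2 and 479.3). From 40 to under 60 the medians were 1206.2 and 417.7, and from 15 to under 20 they were 364.7 and 208.3. In the hypertrophic list the gap was smaller: at a height of 12 to under 15, the sites had a median score of 167.6 and the pairs between the thresholds one of 143.2. From 8 to under 10 those medians were 120.0 and 118.2, and under 8 the order was the other way, at 105.8 for 41 sites and 110.4 for 17 pairs. At taller hypertrophic summits the gap was wider. The medians were 246.3 and 181.3 from 15 to under 20, and 340.5 and 244.6 from 20 to under 30. From 30 to under 80 they were 492.3 and 380.3. Hypertrophic-taller pairs stood less far apart in their own list, with a median hypertrophic score of 321.4 from 20 to under 30 against 244.6 between the thresholds. A score depends on the IgG pileup as well as on the m6A pileup, and the IgG came from hypertrophic cells for both lists. The part of the control in these scores was not tested.

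**Figure D3:**
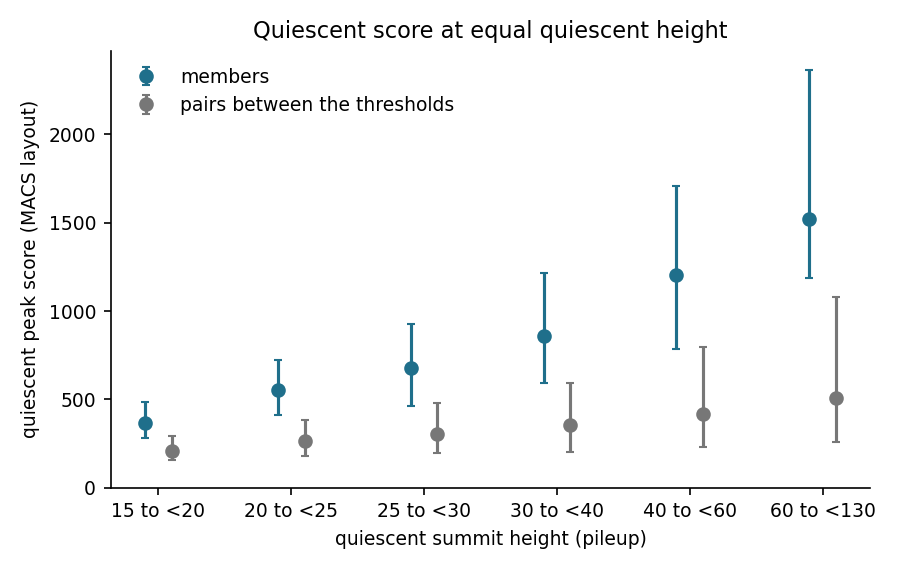
Quiescent peak score (y axis) by quiescent summit height (x axis, pileup) for the quiescent-taller sites (members) and for pairs between the thresholds; points are medians and whiskers run between quartiles. In every class of height shown the sites have the higher median, for example 678.0 against 307.0 from 25 to under 30.

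The highest quiescent scores among the sites lay just under the bound of 3100. On chromosome 15 from 4910341 to 4911893 the score was 3072.24 in the quiescent and 713.7 in the hypertrophic list, with heights of 60 and 19. On chromosome 7 from 51041706 to 51042853 it was 3065.93 against 982.64, with heights of 45 and 28. A site on chromosome 16 from 65247663 to 65248301 scored 3053.58 against 903, with heights of 44 and 20, and its nearest other hypertrophic summit lay 106232 bp away. The fourth, on chromosome 15 from 22577488 to 22579272, joined a quiescent peak of 1785 bp to a hypertrophic peak of 349 bp. The fifth, on chromosome 2 from 181864658 to 181865601, scored 3009.6 against 283.35, with heights of 54 and 16.

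Among the sites, the highest hypertrophic score was 1218.94, on chromosome 16 from 27930673 to 27931412, where the quiescent score was 2603.03 and the heights were 39 and 63. It was followed by a site on chromosome 12 from 13252401 to 13253397, with scores of 1177.88 and 2509.44. The other 3 of the highest 5 lay on chromosomes 14 and 7 and scored from 1092.05 to 1169.02 in the hypertrophic list. A hypertrophic score under 200 was found at 981 of the 1632 sites (60.1%), against 36.7% of all pairs.

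Peaks at these sites were also wider in quiescent cells. Median widths were 551 bp in the quiescent and 422 bp in the hypertrophic list, against 448 and 442 bp over all pairs. The quiescent peak was the wider one at 1390 sites (85.2%, against 50.3% of all pairs) and contained the whole hypertrophic peak at 1014 (62.1%, against 28.4%). The summits lay a median of 21 bp apart, against 9 bp over all pairs and 13 bp over hypertrophic-taller pairs. At 322 sites (19.7%) they were more than 50 bp apart, against 10.2% of all and 13.5% of hypertrophic-taller pairs. At equal quiescent height, the quiescent peaks of the sites had a larger median width than those between the thresholds up to a height of 60. The median summit distance was larger at the sites in every class of height from 15 upwards. From 25 to under 30 the median distance was 23.5 bp at the sites and 9 bp between the thresholds, and the median quiescent widths were 551.5 and 424 bp. From 60 upwards the quiescent peaks of the sites were narrower than those between the thresholds, at medians of 595.5 against 708 bp. They were still wider than the hypertrophic peaks of the same sites, which had a median of 495 bp. Between the thresholds the hypertrophic median was 703.5 bp. The summits were 8 against 4 bp apart.

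The sites stood in sparser surroundings than other shared sites, above all in the hypertrophic list. No other hypertrophic summit lay within 10 kb at 796 sites (48.8%, Wilson interval 46.4 to 51.2%), against 32.9% of all pairs and 27.4% of hypertrophic-taller pairs. No other quiescent summit lay within 10 kb at 675 sites (41.4%), against 33.2% of all pairs. Another eligible pair was present within 10 kb at 467 sites (28.6%, against 40.5%).

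Where there was a neighbour, it tended to differ in the same direction. The centred log2 ratio of the nearest other eligible pair within 10 kb had a median of -0.28 over the 467 sites (binomial 95% interval of the median -0.35 to -0.21), against 0.00 over all 9920 pairs with a neighbour. It was below 0 at 322 of the 467 (69.0%), against 49.9% of all. The neighbour was itself quiescent-taller at 114 (24.4%, interval 20.7 to 28.5%), against 4.61% of all pairs with a neighbour, and hypertrophic-taller at 11 (2.36%). Neighbours at this distance can lie on the same transcript, and both come from the same libraries. Without 14 neighbours that had exactly the same heights as the site, the median was -0.25 and the quiescent-taller share 22.1%.

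By the median, the likeness was smaller at longer distances. For other pairs within 1 kb the median centred ratio was -0.56 (85 links between sites), from 2 to 5 kb it was -0.35, from 10 to 20 kb it was -0.15 and from 100 to 200 kb it was -0.06. Around hypertrophic-taller pairs the medians had the opposite sign, from 0.34 within 1 kb to 0.05 at 100 to 200 kb. Around all eligible pairs they stayed between -0.02 and 0.01. The share of other pairs that were quiescent-taller was 35.3% within 1 kb of the sites, against 5.29% around all pairs. It stayed above that of all pairs at long distances, at 14.0% against 5.52% from 20 to 50 kb. From 50 to 100 kb it was 14.3% against 6.18%, and from 100 to 200 kb 13.2% against 6.61%. A link between quiescent-taller sites was counted from both of its ends, so stretches dense in such sites weigh more in these shares. For example, chromosome 16 from 27000001 to 28000000 held 17 sites and chromosome 20 from 38000001 to 39000000 held 16. How much such stretches add at each distance was not tested.

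**Figure D4:**
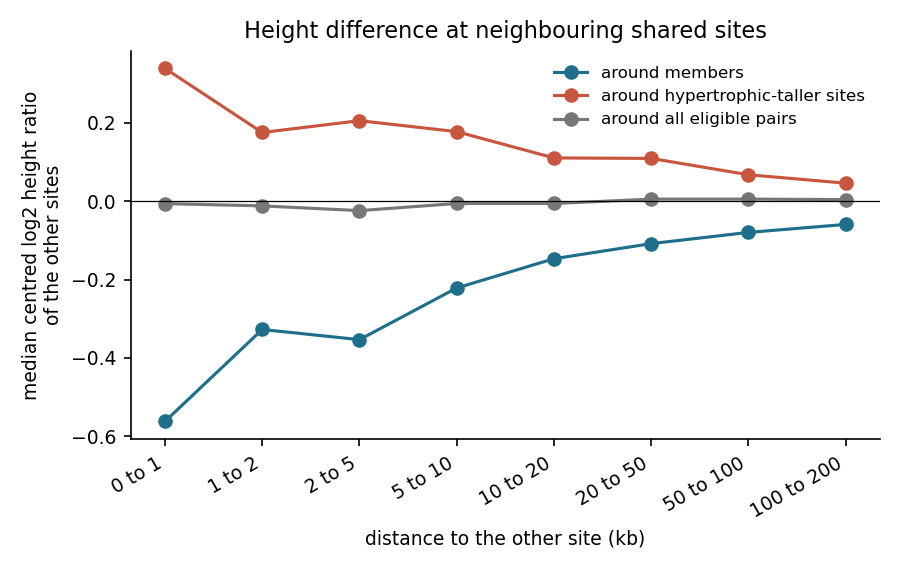
Median centred log2 ratio of hypertrophic to quiescent height at other eligible pairs (y axis) by their distance (x axis, kb) from quiescent-taller sites, hypertrophic-taller sites and all eligible pairs. Around quiescent-taller sites the median goes from -0.56 within 1 kb to -0.06 at 100 to 200 kb, while around all pairs it stays near 0.

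Peaks found in 1 condition only were unevenly split around the sites. Within 10 kb of a site there were 672 quiescent-only peaks, which overlap no hypertrophic peak, and 191 hypertrophic-only peaks, a ratio of 3.52 (Wilson interval 3.00 to 4.13). Around all eligible pairs the counts were 5599 and 5654, a ratio of 0.990, and around hypertrophic-taller pairs they were 205 and 514, a ratio of 0.399. At least 1 quiescent-only peak lay near 502 sites (30.8%) and at least 1 hypertrophic-only peak near 173 (10.6%), against 25.2% and 25.3% of all pairs. The quiescent-only peaks near the sites were weak, with a median height of 9 and a median score of 84.3. Those values were 9 and 76.3 over all quiescent-only peaks. The interval of the ratio takes each peak as independent, although some stretches held many. Chromosome 16 from 27000001 to 28000000 held 87 quiescent-only and 6 hypertrophic-only peaks, at any distance from a site. On chromosome 11 from 72000001 to 73000000, also rich in sites, the counts were 14 and 9. The weight of such stretches in the ratio was not tested.

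The other shared sites of the same locus could be set beside 400 of the 1632 sites, those with at least 3 other eligible pairs within 50 kb. The median of those other pairs was at -0.11 (quartiles -0.40 and 0.05), against 0.01 for all 8774 pairs with such a locus. After that median was subtracted, 245 of the 400 sites (61.3%, interval 56.4 to 65.9%) still lay at -0.8 or below, against 4.94% of the 8774. The sites were selected on the same heights, so this share is a description. It was 45.2% with loci of 20 kb and 39.4% among pairs with both heights at least 20. At 30 sites (7.5%) the locus itself was at -0.8 or below, against 1.19% of the 8774.

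The sites that stood lowest against their locus had neighbours near or above the overall median. On chromosome 15 from 8602844 to 8603907 the heights were 15 in hypertrophic and 44 in quiescent cells, a centred ratio of -1.70. The 3 other pairs within 50 kb had a median of 0.85, a difference of -2.55 from its locus. On chromosome 19 from 55492206 to 55492994 the heights were 7 and 22, and 5 other pairs had a median of 0.29. On chromosome 16 from 81072046 to 81072412 they were 10 and 34, with 0.12 for 5 other pairs. On chromosome 20 from 13565440 to 13566054 they were 8 and 28, with 0.05 for 4 others. The site of chromosome 2 with heights of 6 and 27, named above, was the fifth, with -0.12 for 3 others.

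Few sites formed runs. When sites no more than 10 kb apart were joined, 1499 stood alone, 106 formed 53 pairs, 15 formed 5 runs of 3 and 12 formed 2 runs of 6. Hypertrophic-taller pairs, of which there were fewer (1006 against 1632), formed no run longer than 3. The runs of 6 lay on chromosomes 20 and 13 and had regular values.

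The run on chromosome 20 spanned 18.8 kb from summit 38260270 to 38279082 and held 6 of the 7 eligible pairs there. Their hypertrophic heights in order were 17, 17, 15, 17, 17 and 12, and their quiescent heights 29, 30, 29, 29, 29 and 20. The pair that missed the threshold stood at 18 and 28. From the first site on, the summits lay at 0, 3.53, 4.66, 8.16, 11.7, 15.3 and 18.8 kb, so most steps were close to 3.5 kb. Scores were less alike, from 104.96 to 230.55 in the hypertrophic and from 295.11 to 541.14 in the quiescent list over the 6 sites.

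The run on chromosome 13, from summit 87712419 to 87729003, held 6 sites among 6 eligible pairs. The first 5 had exactly the same heights, 45 in hypertrophic and 75 in quiescent cells, and the sixth had 30 and 62. A further shared site, between the third and the fourth, also had heights of 45 and 75 but a hypertrophic score of 96.08, under the bound. Quiescent scores of the 5 equal sites ran from 341.55 to 1731.14. The nearest shared sites before the run had heights of 154 and 155, 66 and 52, and 152 and 145 in hypertrophic and quiescent cells. After it, the nearest shared sites stood at 18 and 27 and at 18 and 24. The quiescent height was thus the larger one after the run, and close to or below the hypertrophic one before it.

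**Figure D5:**
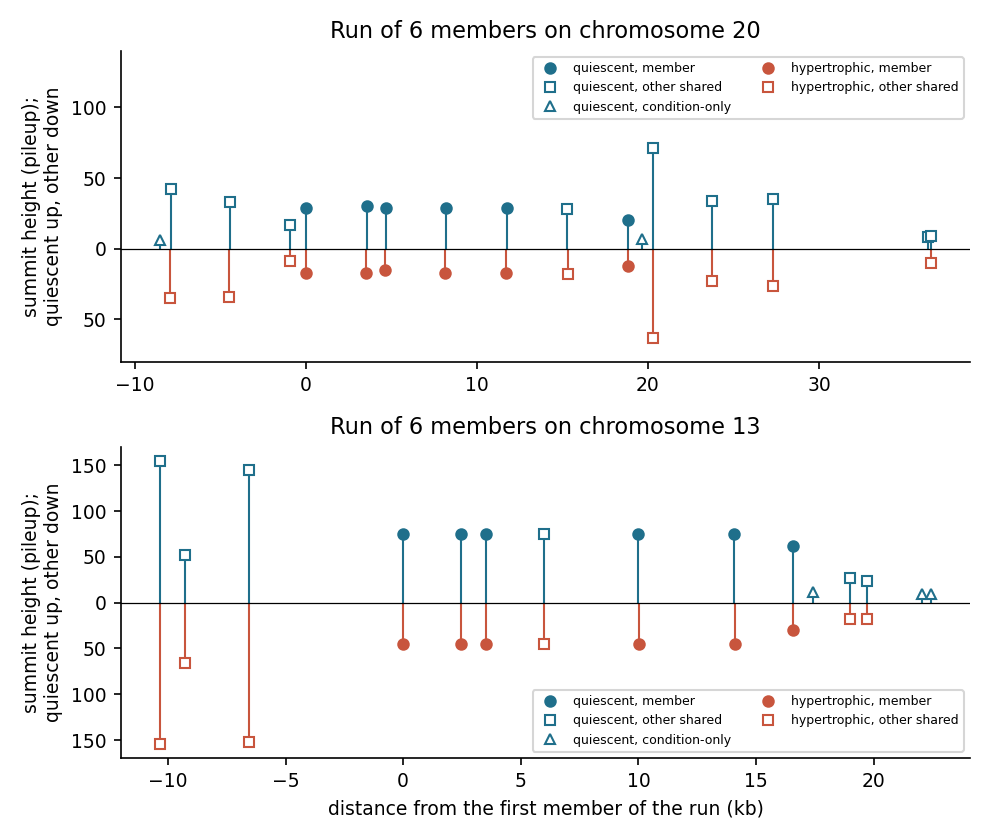
Summit heights (pileup) of every listed peak in and around the 2 longest runs, quiescent upwards and hypertrophic downwards, against distance from the first site of the run (kb); filled circles are quiescent-taller sites (members), squares other peaks that overlap the other list and triangles peaks of 1 list only. On chromosome 13 the first 5 sites share heights of 45 and 75, and on chromosome 20 the members repeat at 12 to 17 against 20 to 30.

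Equal heights at nearby sites were more common among the quiescent-taller sites than among all pairs. Both heights and the offset between the summits were the same as at another eligible pair within 1 Mb at 42 sites (2.57%, interval 1.91 to 3.46%), against 0.972% of all pairs. Low heights match more easily. With a geometric mean height of at least 20, the shares were 2.49% (17 of 683) and 0.806% (135 of 16750). The scores and widths were the same as well, somewhere in the genome, at 10 sites (0.613%), which is close to the 0.559% of all pairs. No treatment of reads that match several places is stated, and the sequences at these sites were not compared, so whether such sites are separate was not tested. Counting each such set once leaves 1607 sites.

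Of the 5 runs of 3 sites, the 3 with the lowest median ratio are given. On chromosome 16 from summit 27919947 to 27931106 the heights were 16 and 47, 19 and 41, and 39 and 63, and 3 quiescent-only summits lay between them. On chromosome 5 from 51367607 to 51382552 the sites stood at 13 and 28, 21 and 39, and 16 and 35, beside another pair of 15 and 21 that missed the threshold. On chromosome 6 from 23879220 to 23881234 they stood at 12 and 23, again 12 and 23, and 19 and 37, at steps of close to 1 kb.

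Over the genome the sites were scattered but not even. They fell in 956 of the 2484 windows of 1 Mb that held an eligible pair, with a single site in 575. At least 5 sites were found in 24 windows, against 4 windows with at least 5 hypertrophic-taller pairs. There were 1632 sites and 1006 such pairs, and the window counts were not adjusted for this. The windows below were named after their counts were seen. Chromosome 16 from 27000001 to 28000000 held 17 sites among 44 pairs, no hypertrophic-taller pair, and 17 different combinations of heights and summit offset. Its sites stood at 10 to 39 in hypertrophic and 16 to 63 in quiescent cells. Chromosome 20 from 38000001 to 39000000 held 16 among 43, with 13 different combinations. Chromosome 16 from 21000001 to 22000000 held 10 among 17, but with only 5 combinations: 3 sites had heights of 11 and 20 with summits 11 bp apart, and 3 further combinations occurred at 2 sites each.

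Chromosome 8 from 40000001 to 41000000 had the highest share of sites among the 10 windows with most sites, 9 of 11 pairs. From the first to the last, the hypertrophic heights were 10, 17, 15, 11, 22, 8, 13, 15 and 14, and the quiescent heights 19, 36, 29, 24, 37, 15, 30, 30 and 26. All 9 lay between 40008760 and 40225234 and had different combinations of heights and offset. The 2 pairs further along, at 40485609 and 40775563, went the other way, with 16 against 10 and 39 against 32. The window also held 12 quiescent-only peaks and 1 hypertrophic-only peak.

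By chromosome, the share of eligible pairs that were quiescent-taller was highest on chromosome 12 (73 of 802, 9.10%, interval 7.30 to 11.3%) and lowest on chromosome X (19 of 640, 2.97%, interval 1.91 to 4.59%). Chromosome 8 was next to the top with 116 of 1278 (9.08%), so the order of those 2 is within counting error. On chromosome X the hypertrophic-taller share was 3.75%, and chromosomes 15 and X were the only ones with more hypertrophic-taller than quiescent-taller pairs (50 against 40, and 24 against 19). The median ratio of all pairs differed little between chromosomes, from -0.03 on chromosome 16 to 0.02 on chromosome 10.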

How the data were processed

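Peaks of m6A immunoprecipitates from neonatal rat cardiomyocytes were used as deposited, 1 peak list and 1 summit list per condition. Per the submitters' processing notes, which list no parameters, CASAVA 1.8, TopHat and MACS 1.4 were used with build rn4. The deposited score has the layout of MACS 1.4, where it grows with the negative logarithm of a p-value. The deposited summit heights are a signal, the read pileup at the summit in whole numbers, with no scaling stated. Whether the 2 libraries of a condition were pooled, and their depth, are not given in the sources. All deposited columns of values were used, and 0 were left out.

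Summits were paired, heights compared on the log2 scale and centred on the median of all eligible pairs. Neighbours were sought within 10 kb, loci taken as 50 kb to either side with at least 3 other pairs, and condition-only peaks defined as overlapping no peak of the other list. Wilson 95% intervals on shares cover only the error of counting. No test was made, since there is no replicate spread and the sites were chosen on the height difference. The sites and all measures were chosen with earlier results of these data known. Sites named in the text are the 10 lowest ratios, the 10 tallest quiescent summits, the 5 highest scores of each list, the 3 pairs on either side of the threshold (given with all pairs tied with them), the 5 runs with most sites (ties by lower median ratio), the 5 lowest against their locus, and the chromosomes with the highest and lowest share among those with at least 200 pairs. Gene names and sequences, including the planned look at m6A sequence words, were not used here, because the reference tables belong to another rat assembly. Settings varied were the centring, threshold, summit distance, overlap, score, width and height bounds and the distances for neighbours. The pairing and neighbour code was tested on simulated lists. Python 3.11.15, numpy 2.4.6, pandas 2.3.3, scipy 1.17.1 and matplotlib 3.10.9 were used.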

Additional observations from a re-analysis of the deposited data

How the results depend on the processing

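Of 113 values recomputed under other settings, 79 stayed within 1.5 times (number of sites) or within the interval of the main value, 34 moved further and 0 changed direction. Counts and shares cannot be negative, so they could not change direction. Only the median score excess (15 values), the median of the nearest pair (19) and the ratio of condition-only peaks (17) could. Counts of sites moved to 1010 (threshold of -1), 2528 (-0.6), 636 (scores of at least 200), 3187 (at least 50) and 297 (heights of at least 20). Their share of the eligible pairs moved to 4.12%, 10.3%, 4.97%, 7.66% and 1.97% in that order, to 4.75% without centring, 6.06% and 7.35% with summits within 50 and 200 bp, and 7.001% without heights of 140 or more. The median excess of the quiescent score was 454.5, and moved to 523.8 without centring, 547.1 and 357.0 with thresholds of -1 and -0.6, 701.2 and 287.6 with scores of at least 200 and 50, and 698.8 with heights of at least 20. The share with the higher quiescent score was 100% without centring, with a threshold of -1 and with heights of at least 20. The median of the nearest pair moved to -0.16 without centring (where the median of all pairs is 0.15), -0.41 within 5 kb and -0.15 within 50 kb. The ratio of quiescent-only to hypertrophic-only peaks moved to 2.84 with a threshold of -0.6 and 2.10 within 50 kb. The share still past the threshold against the locus moved to 71.2% without centring, 52.4% and 67.1% with scores of at least 200 and 50, 39.4% with heights of at least 20, and 45.2% and 66.4% with loci of 20 and 100 kb. The cause of these shifts was not tested. Requiring mutual nearest summits and lifting the width bound left the 1632 sites the same in number. Counting sites of equal heights and offset once, and leaving out neighbours under 1 kb away or of equal heights, were chosen after seeing the data and moved no value beyond its interval. No paired analysis was possible because each condition has 1 list. Depth is unknown beyond the summit heights, so low pileups limit which differences can be read.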
